A study of Mus musculus with 20 samples.

Results

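Tbx2, Tbx3, Tbx15 and Tbx18, T-box transcription factor genes active in the limb other than the limb identity genes Tbx4 and Tbx5, were followed through the phalanges of the embryonic mouse. The genes were picked by symbol from the deposited count tables, where each symbol had 1 row per table, and they are 4 of 23990 genes measured at both stages. All 4 passed the filter on low counts and were tested among 14872 genes. The study sequenced messenger RNA from phalanges, the segments of the digits, at embryonic day 17 (E17) and embryonic day 16 (E16). There were 20 libraries, 1 for each combination of stage, limb and phalanx, so no combination was repeated. At each stage the phalanges were the distal and proximal phalanx of digit 1, the inner digit, and, in digit 2, also a middle phalanx between those ends, taken from both hindlimb and forelimb. Each E17 library was a pool from 10 embryos and each E16 library a pool from 20, and the labels give no strain, genotype or treatment. Whether the libraries of 1 stage came from the same embryos is not stated, so spread between libraries of a group is spread over the other factors and not over litters. Stage cannot be told apart from pool size or count table.

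T-box factors bind DNA through a shared domain, the T-box, and switch genes on or off in many embryonic fields. Tbx2 and Tbx3 are close relatives that act mainly as repressors, hold back cell cycle inhibitors and, in limb buds, take part in signalling along the margins of the bud that bears on digit number and identity. Tbx15 and Tbx18 form another related pair of repressors that can pair with each other and recruit Groucho-type corepressors. Tbx15 is needed for the shape of parts of the skeleton, the dorsal coat boundary and certain muscle fibres, while Tbx18 is needed in somites and in the mesenchyme around the ureter and marks pericytes and the condensing dermis of hair follicles. In the mouse genome Tbx2 lies beside Tbx4, and Tbx3 lies beside Tbx5.

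Total counts ranged from 75278309 to 111204552 per library at E17 and from 70871735 to 77361898 at E16. Markers of cartilage, of bone and dermis and of epidermis were all present. Col2a1, the main cartilage collagen, ranged from 50.3 to 889.6 CPM (counts scaled to a common library size) over the 20 libraries, Col1a1 of bone and dermis from 2115 to 9894 CPM and the basal keratin Krt14 from 533 to 2274 CPM. Bglap, the marker of mature osteoblasts, was at 0 in 16 libraries. CPM include the normalisation factors, and a fold change is the log2 ratio from 1 edgeR fit over all libraries with its standard error (SE). The SE was worked back from the test, as the absolute log2 fold change divided by the square root of the F statistic. In such bulk samples fewer cells of a type and less RNA per cell cannot be told apart.

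Per kilobase of exon the genes lay close together. Tbx18 averaged 16.1 ± 11.1 CPM per kilobase, Tbx15 11.1 ± 6.37, Tbx2 9.55 ± 7.71 and Tbx3 8.32 ± 3.65 (SD over 20 libraries), and these ranges overlapped. The limb identity genes were on a like scale, with 13.0 ± 15.2 CPM per kilobase for Tbx5 and 10.6 ± 6.84 for Tbx4, as were Tbx1 at 9.18 ± 6.36 and Mga at 9.16 ± 2.19. Each of Tbx6, Tbx10, Tbx20, Tbx21, Tbx22, Eomes and Tbr1 averaged at most 0.131 CPM per kilobase, the value of Tbr1, and was below the filter. Tbx3os1, an antisense transcript that overlaps the start of Tbx3, ranged from 0.406 to 6.20 CPM. The library kit is not marked as keeping strand, so reads of Tbx3 and its antisense partner cannot be told apart where they overlap.

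**Figure D1:**
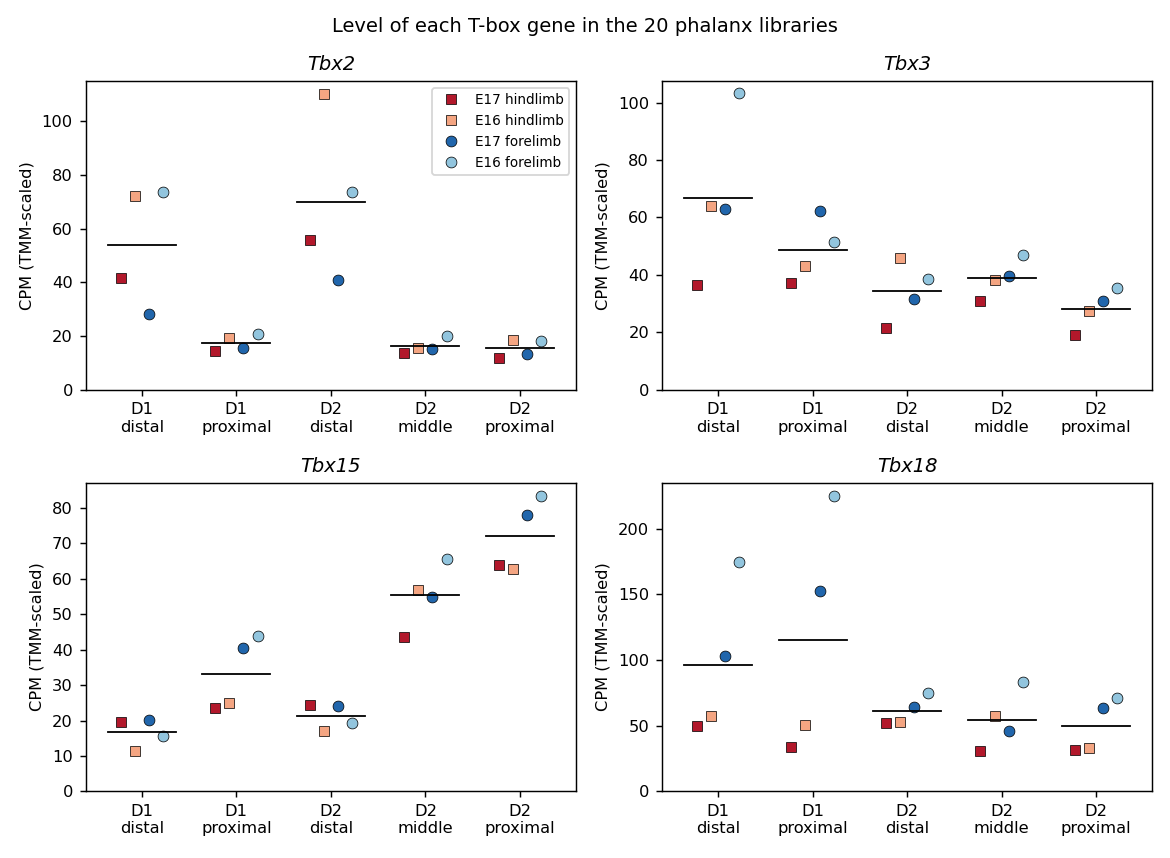
Level of each gene in CPM on a linear axis that starts at 0, in the 5 phalanges along the horizontal axis (D1 and D2, digits 1 and 2); each point is 1 library, colour and shape give stage and limb, and black bars are means of the 4 libraries. Tbx2 is high in both distal phalanges, Tbx15 climbs toward the proximal phalanx of digit 2, and Tbx18 reaches 225 CPM in the forelimb digit 1.

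Along the digit Tbx2 and Tbx15 differed in opposite directions. Tbx2 was 3.60 times as high in distal as in proximal phalanges and Tbx15 was lower in distal phalanges, at 0.389 times the proximal level. Tbx3 was slightly higher in distal than in proximal phalanges, but not than in the middle phalanx of digit 2, and Tbx18 did not pass the test. In all, 3 of the 4 genes passed, where 46.8% of all tested genes did.

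For Tbx2, the distal phalanx of digit 2 held 56.0 CPM in the E17 hindlimb, 40.8 in the E17 forelimb, 110.2 in the E16 hindlimb and 73.5 in the E16 forelimb. The distal phalanx of digit 1 held 41.6, 28.3, 72.3 and 73.6 CPM in the same order of stage and limb. All 8 distal libraries stood above all 8 proximal libraries, which ran from 11.7 to 20.8 CPM with a median of 16.7. The fold change was 1.85 ± 0.12 on the log2 scale, higher in 8 of 8 matched pairs (edgeR quasi-likelihood test, adjusted p = 2.23e-09). Within digit 2 the distal phalanx also exceeded the middle phalanx, which held 13.8 to 20.1 CPM, by 2.04 ± 0.18 (edgeR adjusted p = 2.3e-07). In order of mean level, the distal phalanx of digit 2 (70.1 ± 29.9 CPM, SD, n = 4) came before that of digit 1 (54.0 ± 22.6), with a difference that did not pass the test (digit 1 against digit 2, -0.39 ± 0.17, edgeR adjusted p = 0.384). After a step came the proximal phalanx of digit 1 and the middle and proximal phalanges of digit 2 at 17.4, 16.2 and 15.4 CPM, and no pair among these 3 passed.

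Tbx15 ran the other way. It held 63.8 CPM in the proximal phalanx of digit 2 of the E17 hindlimb, 78.1 in the E17 forelimb, 62.8 in the E16 hindlimb and 83.5 in the E16 forelimb. The middle phalanx of digit 2 held 43.7, 54.9, 56.9 and 65.6 CPM in that order, and the proximal phalanx of digit 1 held 23.6, 40.6, 25.0 and 43.8. Distal libraries ran from 11.3 to 24.4 CPM with a median of 19.5, and overlapped the proximal libraries only through the E17 hindlimb digit 1, at 23.6 CPM. Distal against proximal, the fold change was -1.36 ± 0.12, lower in 8 of 8 pairs (edgeR adjusted p = 6.21e-08). Distal against middle within digit 2 it was -1.38 ± 0.17 with no overlap between the groups (edgeR adjusted p = 8.45e-06). In the distal against middle comparison Tbx2 and Tbx15 were the 2 genes of the 4 that passed, against 33.1% of all tested genes.

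The middle against the proximal phalanx of digit 2 gave none of the 4 with edgeR or with DESeq2, where edgeR called 3.78% of all tested genes, and 2 of the 4 had an unadjusted p under 0.05. The nearest were Tbx3, at 30.8 to 46.9 CPM in middle and 19.1 to 35.3 CPM in proximal phalanges (0.48 ± 0.17, higher in 4 of 4 pairs, edgeR adjusted p = 0.145), and Tbx15 (-0.37 ± 0.17, lower in 4 of 4 pairs, edgeR adjusted p = 0.32). Without the E16 hindlimb digit 2 distal library the adjusted p of Tbx3 was 0.0498 for a fold change of 0.48.

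Tbx3 held 21.5 to 103 CPM in distal libraries, with a median of 42.3, and 19.1 to 62.2 CPM in proximal libraries, with a median of 36.3. The groups overlapped almost wholly. The fold change of 0.34 ± 0.12 was higher in 7 of 8 pairs (edgeR adjusted p = 0.0238). The call was lost when the E16 forelimb digit 1 distal, E16 forelimb digit 1 proximal, E16 hindlimb digit 1 proximal or E16 hindlimb digit 2 distal library was left out in turn (0.24 to 0.31, adjusted p 0.0535 to 0.0604), and at E17 alone the fold change was 0.04 (adjusted p = 0.745). It also did not pass over the hindlimb alone (0.37, adjusted p = 0.0509), the forelimb alone (0.29, adjusted p = 0.112), digit 1 (0.39, adjusted p = 0.0963) or digit 2 (0.29, adjusted p = 0.178). Distal against middle within digit 2, Tbx3 ran the other way, at -0.19 ± 0.17, lower in 3 of 4 pairs (edgeR adjusted p = 0.422). The means were 34.4 CPM in distal and 38.8 CPM in middle phalanges. Without the E16 hindlimb digit 2 distal library that difference was -0.41 and passed (edgeR adjusted p = 0.0402). For Tbx18, distal libraries held 49.6 to 175 CPM (median 60.8) and proximal libraries 31.3 to 225 CPM (median 56.9), with a fold change of 0.14 ± 0.19 (edgeR adjusted p = 0.583). Over the hindlimb libraries alone Tbx18 was higher distally by 0.54 (adjusted p = 0.0126, where 36.2% of all tested genes passed), with 49.6 to 57.6 CPM in the 4 distal and 31.3 to 50.4 CPM in the 4 proximal libraries. Over the forelimb libraries alone the value was -0.21, and the limb by position interaction was 0.40 ± 0.35 (edgeR adjusted p = 0.634). Of 10 alternatives other than single libraries left out, 2 gave a Tbx18 call for position, the hindlimb subset among them, and 2 reversed its sign.

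Markers of other tissues moved with position, where 46.8% of all tested genes passed in either direction. The 5 nail markers summed to 581 to 8140 CPM in distal and 9.18 to 29.2 CPM in proximal libraries, and all 5 were higher distally. Krt81 was at 0 in 13 libraries, and Krt84 and Krt31 in 1 each. Tendon markers summed to 158 to 259 CPM in distal and 240.0 to 678 CPM in proximal libraries, and 4 of 5 were lower distally. Dermal mesenchyme markers summed to 709.96 to 1197 CPM in distal and 1467 to 2284 CPM in proximal libraries, and all 6 were lower distally. Endothelial markers summed to 204 to 272 CPM in distal and 354 to 456 CPM in proximal libraries, with all 4 lower distally, and macrophage markers to 35.3 to 90.2 and 74.9 to 128 CPM, also with all 4 lower. Epidermal markers summed to 15285 to 57921 CPM in distal and 10100 to 40062 CPM in proximal libraries, and all 6 were higher distally. Of 5 tested osteoblast markers 4 were higher distally and 1 lower, although their sum, which Col1a1 leads, was 2289 to 4516 CPM in distal and 3429 to 9951 CPM in proximal libraries. Of the other lists, 4 of 6 pericyte and smooth muscle markers, 3 of 8 cartilage and 2 of 4 joint markers were lower distally and none higher, while Schwann cell (1 higher, 3 lower) and condensing dermis markers (2 higher, 2 lower) were mixed. Of the muscle markers 1 of 7, and of the melanocyte markers 1 of 3, was higher distally. The part of these shifts in the Tbx2 and Tbx15 differences was not tested.

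**Figure D2:**
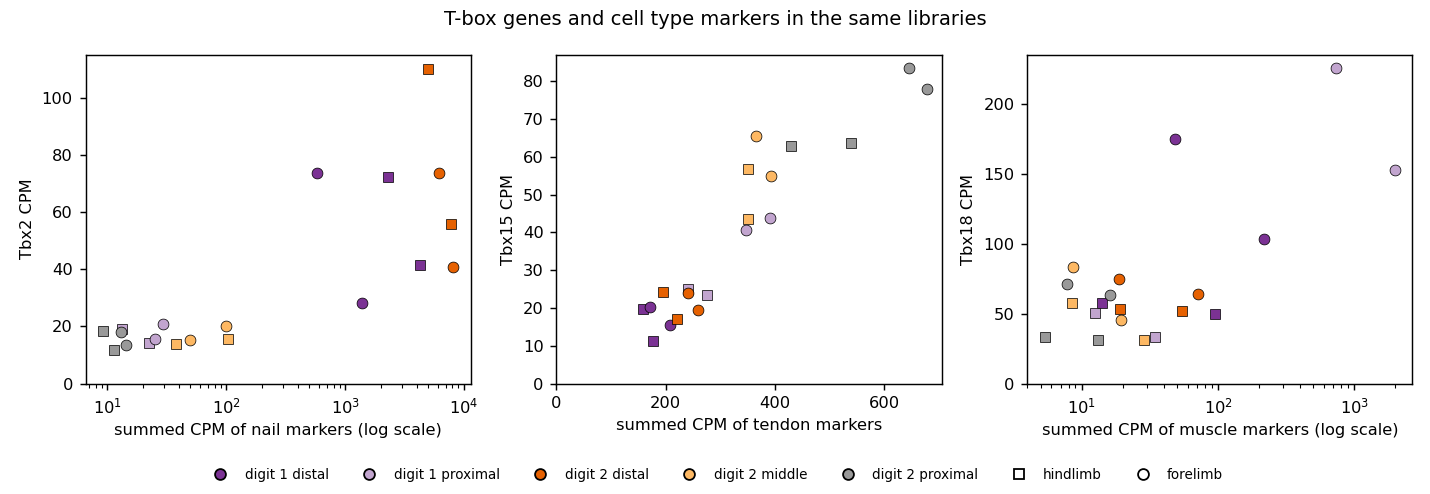
CPM of Tbx2, Tbx15 and Tbx18 (vertical axes, from 0) against the summed CPM of the nail, tendon and muscle marker lists in the same library (horizontal axes, log scale for nail and muscle); each of the 20 points is 1 library, with colour for the phalanx and squares for hindlimb, circles for forelimb. Tbx2 parts the distal libraries from the rest as the nail sum does, but does not follow it within them. The lowest distal nail sum (581 CPM, E16 forelimb digit 1) went with Tbx2 at 73.6 CPM. The highest (8140 CPM, E17 forelimb digit 2) went with 40.8 CPM. Tbx15 and the tendon sum both run up to the proximal phalanx of digit 2. The 2 libraries with the largest muscle sums are forelimb digit 1 proximal phalanges with high Tbx18. The E16 forelimb digit 1 distal library held 175 CPM of Tbx18 with a muscle sum of 48.4 CPM. The E17 hindlimb digit 1 distal library held 49.6 CPM with a sum of 95.3 CPM. Sums of osteoblast (mostly Col1a1), dermal mesenchyme, cartilage, and pericyte and smooth muscle markers, not drawn, also had their highest mean in the proximal phalanx of digit 2.

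The digits differed in Tbx3 and Tbx15. Tbx3 was higher in digit 1 than in digit 2 at both ends of the digit, and Tbx15 was lower in the proximal phalanx of digit 1. Between distal phalanges 1 of the 4 genes passed, against 1.49% of all tested genes, and between proximal phalanges 2 of 4 passed, against 1.22%.

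In the distal phalanx Tbx3 held 36.4 CPM in digit 1 and 21.5 in digit 2 of the E17 hindlimb, and 63.0 and 31.5 CPM in the E17 forelimb. At E16 the distal values were 64.2 CPM in digit 1 and 45.9 in digit 2 of the hindlimb, and 103 and 38.7 CPM in the forelimb. Digit 1 was thus the higher in all 4 pairs, although the groups overlapped, and the fold change was 0.90 ± 0.17 (edgeR adjusted p = 0.0103). In the proximal phalanx digit 1 held 37.3, 62.2, 43.2 and 51.5 CPM in the E17 hindlimb, E17 forelimb, E16 hindlimb and E16 forelimb, against 19.1, 30.9, 27.3 and 35.3 CPM in digit 2, with no overlap. That fold change was 0.81 ± 0.17 (edgeR adjusted p = 0.0219). The distal call was lost without the E16 forelimb digit 1 distal library (0.79, adjusted p = 0.0678) or the E16 forelimb digit 2 distal library (0.82, adjusted p = 0.0511). The proximal call was lost without the E17 forelimb digit 1 proximal library or any 1 of the digit 2 proximal libraries (0.66 to 0.88, adjusted p 0.0548 to 0.0876). At single stages the distal fold change was 0.89 at E17 and 0.93 at E16, and neither passed (adjusted p = 0.134 and 0.0988). Over the hindlimb alone it was 0.60 (adjusted p = 0.293). The proximal fold change did not pass at E16 alone (0.60, adjusted p = 0.446), over the hindlimb alone (0.82, adjusted p = 0.189), over the forelimb alone (0.80, adjusted p = 0.0696) or without both forelimb digit 1 proximal libraries (0.76, adjusted p = 0.124).

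Tbx15 in the proximal phalanx of digit 1, at 23.6 to 43.8 CPM, lay wholly below the proximal phalanx of digit 2, at 62.8 to 83.5 CPM. The fold change was -1.14 ± 0.17, lower in 4 of 4 pairs (edgeR adjusted p = 0.00408), a level 0.454 times that of digit 2. It was -1.17 over E17 libraries alone and -1.12 over E16 libraries alone, and neither passed (adjusted p = 0.148 and 0.0644), nor did the hindlimb alone (-1.38, adjusted p = 0.0784). Set against the middle phalanx of digit 2 it was also lower, by -0.77 ± 0.17 (edgeR adjusted p = 0.0243), and was the 1 gene of 4 that passed where 1.85% of all tested genes did. This last call was lost without the E16 forelimb digit 2 middle, E16 hindlimb digit 1 proximal, E16 hindlimb digit 2 middle, E17 forelimb digit 1 proximal or E17 hindlimb digit 1 proximal library (-0.80 to -0.65, adjusted p 0.0535 to 0.116). It did not pass at E17 alone (-0.65, adjusted p = 0.377), at E16 alone (-0.87, adjusted p = 0.140), over the hindlimb alone (-1.06, adjusted p = 0.171) or over the forelimb alone (-0.51, adjusted p = 0.119). Tendon markers summed to 240.0 to 390.3 CPM in the proximal phalanx of digit 1, 350.5 to 392 CPM in the middle and 429 to 678 CPM in the proximal phalanx of digit 2. Osteoblast sums averaged 5542, 6403 and 7234 CPM in that order, and dermal mesenchyme sums 1603, 1484 and 2067 CPM. The osteoblast sum is mostly Col1a1 of bone and dermis, at 9894 of 9951 CPM in the E16 forelimb digit 2 proximal library. Between proximal phalanges 6 of 7 muscle and 1 of 4 joint markers were higher in digit 1. Tendon (3 of 5) and dermal mesenchyme markers (1 of 6) were lower, and osteoblast markers were mixed (1 higher, 2 lower). No marker of the other lists passed, and 1.22% of all tested genes did. The part of these shifts was not tested.

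For Tbx18 the mean in the proximal phalanx was 115 ± 90.2 CPM in digit 1 and 49.8 ± 20.6 CPM in digit 2 (SD, n = 4 each). The fold change of 1.00 ± 0.27 was higher in 4 of 4 pairs and did not pass with edgeR (adjusted p = 0.0923), while DESeq2, which called 2.82% of all tested genes, gave an adjusted p of 0.0414. It passed without the E16 hindlimb digit 1 proximal library (1.18, adjusted p = 0.0403) or the E17 hindlimb digit 1 proximal library (1.22, adjusted p = 0.0212). Over the forelimb libraries alone digit 1 exceeded digit 2 in the proximal phalanx by 1.45 (edgeR adjusted p = 0.0021) and in the distal phalanx by 0.96 (edgeR adjusted p = 0.0225). In these subsets 2.12% and 1.85% of all tested genes passed, in that order. Set against the middle phalanx of digit 2, Tbx18 in the proximal phalanx of digit 1 differed by 0.83 ± 0.28. It was higher in 3 of 4 pairs and did not pass (edgeR adjusted p = 0.151). That difference passed without the E17 hindlimb digit 1 proximal library (1.05, edgeR adjusted p = 0.0394). Of 8 other alternatives 1 also gave a call and 1 reversed the sign. Tbx2 passed in none of the digit comparisons, with fold changes of -0.39 ± 0.17 between distal and 0.19 ± 0.17 between proximal phalanges.

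**Figure D3:**
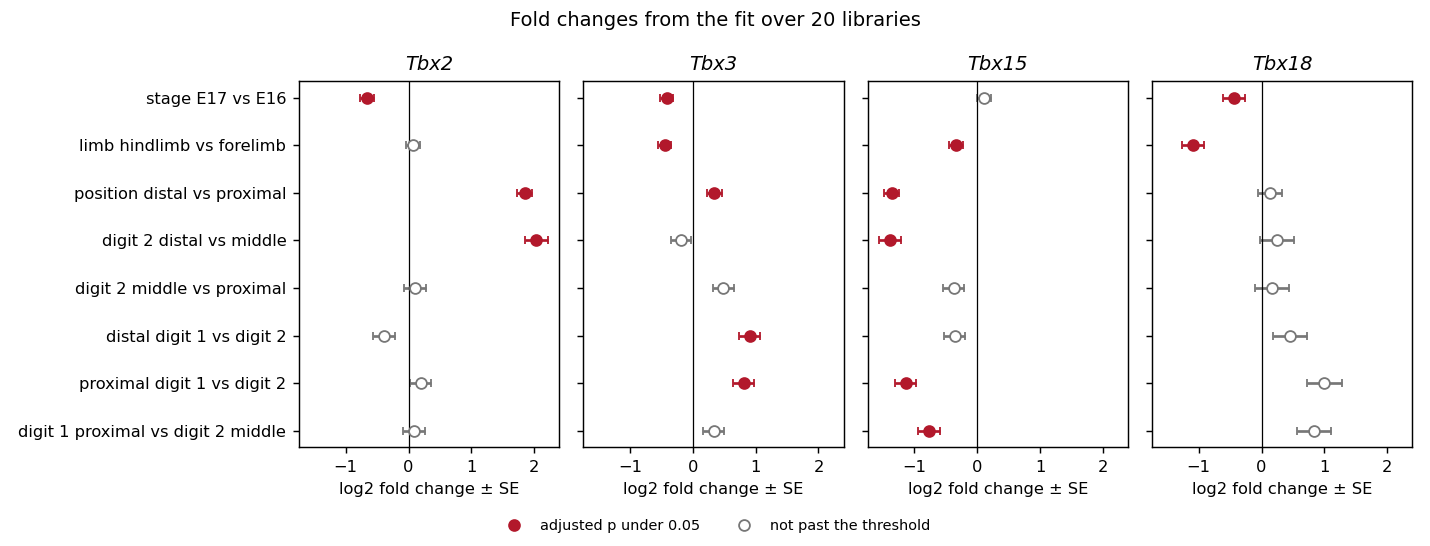
Fold change (log2, points) with its SE (bars) for each gene in the 8 comparisons, from the fit over 20 libraries; values right of 0 are higher in the first-named group, and filled red points passed an adjusted p of 0.05. Tbx2 and Tbx15 sit on opposite sides of 0 for position, and Tbx18 has its lowest value for limb.

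The hindlimb held less Tbx18, Tbx3 and Tbx15 than the forelimb. Tbx18 was at 0.467 times its forelimb level, Tbx3 at 0.732 times and Tbx15 at 0.790 times, and Tbx2 did not pass the test. So 3 of the 4 genes passed and all 3 were lower in the hindlimb, where 21.1% of all tested genes passed and 11.2% of all tested genes were lower.

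In digit 1 Tbx18 held 49.6 and 33.5 CPM in the distal and proximal phalanx of the E17 hindlimb and 57.6 and 50.4 CPM in those of the E16 hindlimb. The forelimb counterparts held 103 and 153 CPM at E17 and 175 and 225 CPM at E16, so the limbs did not overlap in digit 1. In digit 2 the 6 hindlimb libraries ran from 30.8 to 57.6 CPM with a median of 42.4, and the 6 forelimb libraries from 45.7 to 83.5 CPM with a median of 67.8, with some overlap. Over both digits the fold change was -1.10 ± 0.18, lower in 10 of 10 pairs (edgeR adjusted p = 0.000572). It was -1.75 ± 0.18 over digit 1 libraries alone (adjusted p = 0.0057) and -0.67 ± 0.14 over digit 2 libraries alone (adjusted p = 0.0178), where 2.68% of all tested genes passed in digit 1 and 5.12% in digit 2. The limb by digit interaction of -1.09 ± 0.24 had an unadjusted p of 0.000334 and did not pass after adjustment with edgeR (adjusted p = 0.102), where 0.168% of all tested genes did. DESeq2 called the interaction (-1.08, adjusted p = 0.0016) among 0.793% of all tested genes, as did edgeR without the E17 hindlimb digit 1 distal library (-1.22, adjusted p = 0.0336). At E17 alone the limb difference was -1.02 (adjusted p = 0.0871).

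**Figure D4:**
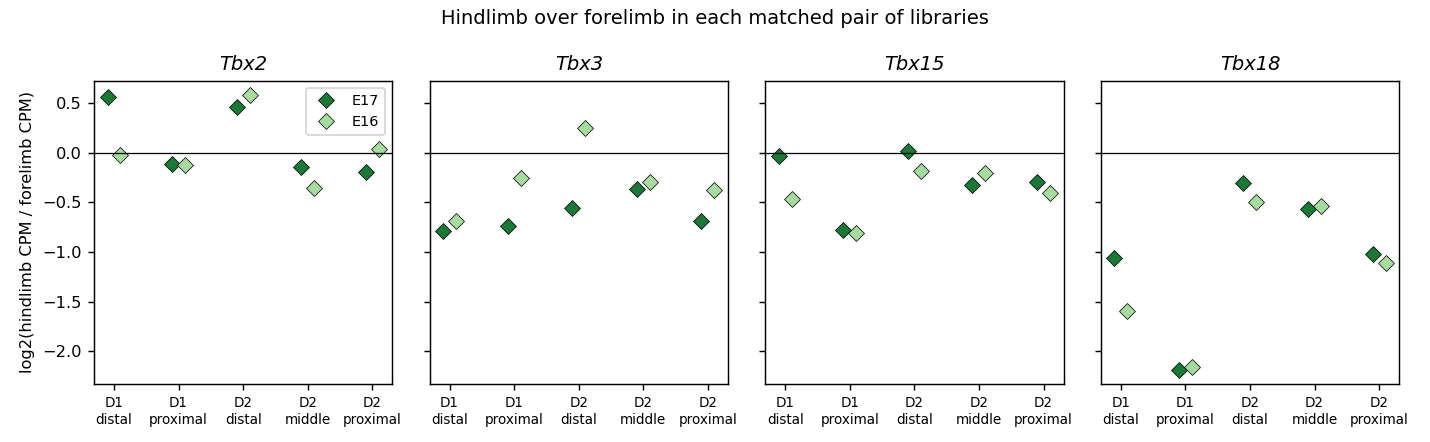
Log2 ratio of hindlimb to forelimb CPM in each matched pair of libraries, by phalanx along the horizontal axis; dark diamonds are E17 and light diamonds E16, and the line marks equal levels. All 10 Tbx18 ratios lie below 0, lowest in the proximal phalanx of digit 1 at -2.19 (E17) and -2.16 (E16).

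Muscle markers also stood highest in the forelimb digit 1. The 7 markers, embryonic and perinatal myosins among them, summed to 12.6 to 95.3 CPM in the hindlimb digit 1 and 48.4 to 1988 CPM in the forelimb digit 1, against 5.35 to 54.4 CPM in the hindlimb digit 2 and 7.85 to 71.5 CPM in the forelimb digit 2. Of the 7, 1 passed for limb over all libraries, lower in the hindlimb. Without the 2 forelimb digit 1 proximal libraries, which had the largest muscle sums, the Tbx18 limb difference was -0.83 (edgeR adjusted p = 0.0010). This omission was chosen after seeing the data. The forelimb digit 1 distal libraries that stayed in also had larger muscle sums than their hindlimb counterparts. These were 218 against 95.3 CPM at E17 and 48.4 against 14.0 CPM at E16. Pericyte and smooth muscle markers, cells in which Tbx18 is known to be active, summed to 353 to 598 CPM in hindlimb and 391 to 698 CPM in forelimb libraries, and 3 of 6 were lower in the hindlimb. Markers of condensing dermis summed to 98.0 to 290 CPM in hindlimb and 124 to 312 CPM in forelimb libraries, and 3 of 5 were lower in the hindlimb. Trps1 was the highest of these markers, at 59.7 to 272 CPM over all libraries, and Sox2 lay at only 0.225 to 2.40 CPM. Also lower were 3 of 6 dermal mesenchyme, 3 of 5 tendon, 2 of 4 endothelial and 2 of 4 Schwann cell markers. So were 2 of 5 osteoblast, 2 of 3 melanocyte and 1 of 4 macrophage markers. Of 8 cartilage markers 4 were higher and 1 lower, and of 4 joint markers 1 was higher and 1 lower. Of 6 epidermal markers 1 was higher, and no nail marker passed. Over all tested genes 21.1% passed and 11.2% were lower. The part of these cells in the Tbx18 difference was not tested.

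The stretch before the Tbx18 start site is shown because this gene had the largest limb difference of the 4, and it is the one member whose start site was in the RefSeq promoter table. It is the 250 bases at GRCm38.p6 chr9:87731261-87731510 on the minus strand, with CpG pairs in capitals.
Tbx18 promoter: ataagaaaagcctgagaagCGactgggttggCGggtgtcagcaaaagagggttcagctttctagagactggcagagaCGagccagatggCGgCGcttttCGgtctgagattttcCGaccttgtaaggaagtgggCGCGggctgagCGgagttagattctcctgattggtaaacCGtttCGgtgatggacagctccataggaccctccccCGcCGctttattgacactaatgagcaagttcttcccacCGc
It held 15 CpG pairs, where the median of 32851 promoters of that length was 6 and 27.3% held 15 or more. The T-box half-site GGTGTGA, searched on both strands, was not in this window, and 3.33% of promoters held it.

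Tbx3 held 19.1 to 64.2 CPM in hindlimb libraries, with a median of 36.9, and 30.9 to 103 CPM in forelimb libraries, with a median of 43.2. It was lower in the hindlimb in 9 of 10 pairs, the exception being the E16 distal phalanx of digit 2 where the hindlimb held 45.9 CPM and the forelimb 38.7 CPM. The fold change was -0.45 ± 0.11 (edgeR adjusted p = 0.00722). At E16 alone it was -0.29 (adjusted p = 0.141) and over distal libraries alone -0.43 (adjusted p = 0.0826), and it was -0.63 over digit 1 libraries alone and -0.33 over digit 2 libraries alone, neither of which passed. Tbx5, its neighbour on the chromosome, was lower in the hindlimb by -4.06 ± 0.32 on the log2 scale.

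Tbx15 held 11.3 to 63.8 CPM in hindlimb libraries (median 24.7) and 15.6 to 83.5 CPM in forelimb libraries (median 42.2), with a wide overlap. It was lower in the hindlimb in 9 of 10 pairs, by -0.34 ± 0.11 (edgeR adjusted p = 0.0331). This call was lost without any 1 of 11 libraries, with fold changes of -0.33 to -0.29 and adjusted p of 0.0504 to 0.0712. They were the E17 hindlimb digit 1 proximal, digit 2 middle and digit 2 proximal, the E17 forelimb digit 1 distal and proximal, the E16 hindlimb digit 1 distal, digit 1 proximal and digit 2 distal, and the E16 forelimb digit 1 proximal, digit 2 middle and digit 2 proximal libraries. With no filter on low counts the adjusted p was 0.054, and over E17 libraries alone the fold change was -0.28 (adjusted p = 0.249). It also did not pass over distal libraries alone (-0.14), digit 1 alone (-0.51), digit 2 alone (-0.23) or without both forelimb digit 1 proximal libraries (-0.22). Tbx2 held 11.7 to 110.2 CPM in hindlimb and 13.3 to 73.6 CPM in forelimb libraries, with a fold change of 0.07 ± 0.11 (edgeR adjusted p = 0.689). Over distal libraries alone it was higher in the hindlimb by 0.41 (adjusted p = 0.035, where 10.2% of all tested genes passed) and over the other libraries it was -0.14, while the limb by position interaction of 0.52 ± 0.19 did not pass (edgeR adjusted p = 0.226). Tbx4, its neighbour, was higher in the hindlimb by 2.07 ± 0.15.

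Between E17 and E16, Tbx2, Tbx18 and Tbx3 were lower at the later stage and Tbx15 did not pass the test. Tbx2 was at 0.634 times its E16 level, Tbx18 at 0.737 times and Tbx3 at 0.749 times. So 3 of the 4 genes passed and all 3 were lower at E17, where 65.8% of all tested genes passed and 33.6% of all tested genes were lower.

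Tbx2 held 11.7 to 56.0 CPM at E17 with a median of 15.3 and 15.7 to 110.2 CPM at E16 with a median of 20.5. It was lower in all 10 pairs, by -0.66 ± 0.11 (edgeR adjusted p = 4.14e-05). In distal phalanges the 4 E17 libraries, at 28.3 to 56.0 CPM, all lay below the 4 E16 libraries, at 72.3 to 110.2 CPM. In the other phalanges they ran from 11.7 to 15.5 CPM at E17 and from 15.7 to 20.8 CPM at E16, again with no overlap. The fold change was -0.998 over distal libraries alone, where 49% of all tested genes passed, and -0.41 over the others, and the stage by position interaction of -0.57 ± 0.18 did not pass (edgeR adjusted p = 0.270).

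Tbx3 held 19.1 to 63.0 CPM at E17 and 27.3 to 103 CPM at E16 (median 33.9 CPM at E17 and 44.6 CPM at E16), with a fold change of -0.42 ± 0.11 (edgeR adjusted p = 0.00204). It was lower in 9 of 10 pairs, and the forelimb digit 1 proximal phalanx was the exception, with 62.2 CPM at E17 and 51.5 CPM at E16. Over distal libraries alone the change was -0.74 (edgeR adjusted p = 0.0020), where 49% of all tested genes passed. Over the others it was -0.19 (edgeR adjusted p = 0.0796), and the interaction of -0.55 ± 0.17 did not pass (edgeR adjusted p = 0.275). Over forelimb libraries alone it was -0.24 (adjusted p = 0.119).

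Tbx18 held 30.8 to 153 CPM at E17 and 33.0 to 225 CPM at E16 (median 50.7 CPM at E17 and 64.5 CPM at E16), lower in all 10 pairs by -0.44 ± 0.17 (edgeR adjusted p = 0.032). The pairs ranged from -0.90 on the log2 scale, in the hindlimb digit 2 middle phalanx, to -0.03, in the hindlimb digit 2 distal phalanx. The call was lost without any 1 of 8 libraries, with fold changes of -0.42 to -0.34 and adjusted p of 0.055 to 0.0836. They were the E17 forelimb digit 1 distal, digit 2 distal and digit 2 middle, the E17 hindlimb digit 1 proximal, the E16 forelimb digit 1 distal and proximal, and the E16 hindlimb digit 2 distal and middle libraries. It was -0.31 over distal libraries alone (adjusted p = 0.184) and -0.52 over the others (adjusted p = 0.0606).

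Tbx15 held 19.7 to 78.1 CPM at E17 and 11.3 to 83.5 CPM at E16, with a fold change of 0.11 ± 0.11 (edgeR adjusted p = 0.394). In distal phalanges it was 19.7, 24.4, 20.2 and 24.1 CPM at E17 in the hindlimb digits 1 and 2 and the forelimb digits 1 and 2, against 11.3, 17.1, 15.6 and 19.3 CPM at E16. All 4 E17 libraries thus lay above all 4 E16 libraries. Over distal libraries alone the change was 0.51 ± 0.11 (edgeR adjusted p = 0.0030), where 49% of all tested genes passed. In the other phalanges 5 of 6 pairs were lower at E17 and the change was -0.14 (adjusted p = 0.182). The stage by position interaction was 0.66 ± 0.16 and did not pass with edgeR (adjusted p = 0.0964), where 0.296% of all tested genes did. It passed with DESeq2 (adjusted p = 0.0066, among 1.36% of all tested genes), without the E17 forelimb digit 1 proximal library (0.75, adjusted p = 0.0470) and without both forelimb digit 1 proximal libraries (0.66, adjusted p = 0.0177).

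**Figure D5:**
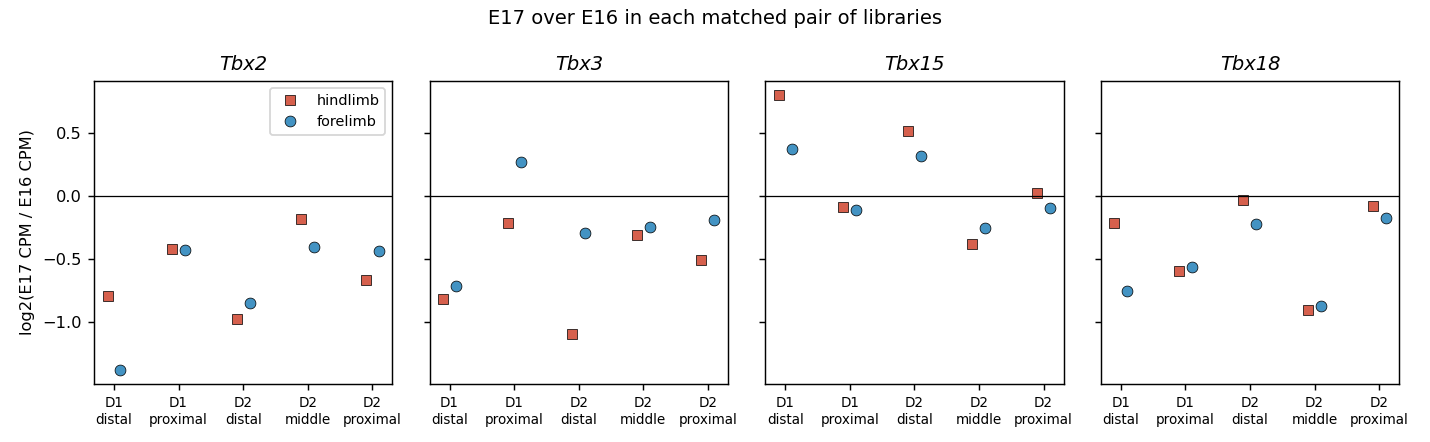
Log2 ratio of E17 to E16 CPM in each matched pair of libraries, by phalanx along the horizontal axis; red squares are hindlimb and blue circles forelimb, and the line marks equal levels. All 10 Tbx2 and all 10 Tbx18 ratios lie below 0, and the 4 distal Tbx15 ratios lie above it.

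Cartilage markers summed to 156 to 319 CPM at E17 and 367 to 1360 CPM at E16, and 7 of 8 were lower at E17. Over all tested genes 65.8% passed for stage and 33.6% were lower. Of 4 joint markers 3 were lower, and all 7 muscle markers were higher. Epidermal markers summed to 32465 to 57921 CPM at E17 and 10100 to 20878 CPM at E16, and 5 of 6 were higher. Condensing dermis markers, led by Trps1, summed to 98.0 to 165 and 129 to 312 CPM in that order (1 of 5 higher, 2 lower). Pericyte and smooth muscle markers summed to 353 to 579 and 471 to 698 CPM (3 of 6 higher, 3 lower). Tendon (2 higher, 3 lower), dermal mesenchyme (3, 1), endothelial (1, 2), osteoblast (1, 3) and nail markers (1, 1) were mixed. For Schwann cells and macrophages 1 marker each was higher, and no melanocyte marker passed. The part of these shifts in the stage differences was not tested. Over the 20 interactions computed for the 4 genes, none passed with edgeR (adjusted p from 0.0964 to 0.997), 7 had an unadjusted p under 0.05 and DESeq2 called 2. With edgeR 0.39% of all tested genes passed for position by digit, 0.155% for limb by position and 0% for stage by limb. An interaction of stage with limb passed for no tested gene with edgeR and for 29 with DESeq2.

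Genes of the pathways around Tbx2 and Tbx3 were read from a list of 20, of which 17 were tested. The values below are log2 fold changes of genes that passed with edgeR. Distal against proximal, 9 were higher and 3 lower, so that 12 of 17 passed against 46.8% of all tested genes, with a median of 0.70 over the list and 0.01 over all genes. Msx2 (3.27) and Msx1 (2.87), homeobox genes of BMP-responsive mesenchyme, were higher distally, and the BMP antagonist Grem1 (-4.38) and Hand2 (-2.25), a posterior limb factor, were lower. At E17 against E16, 3 were higher and 10 lower, so that 13 of 17 passed against 65.8% of all tested genes, with a median of -0.30 against -0.01 over all genes. The Hedgehog pathway genes Gli3 (-1.14) and Ptch1 (-1.08) were lower, and Cdkn2b (0.87), a cell cycle inhibitor of the kind that T-box repressors are known to hold back, was higher. Hindlimb against forelimb, 3 were higher and 2 lower, so that 5 of 17 passed against 21.1% of all tested genes, with a median of 0.12 against -0.01 over all genes, among them the Hedgehog target Gli1 (0.52) and Bmp2 (-0.26).

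Of 21 partners and girdle genes around Tbx15 and Tbx18, 18 were tested. Distal against proximal, 9 were higher and 3 lower (12 of 18 against 46.8% of all tested genes; median 0.25, against 0.01 over all genes). Alx4 (4.13), an aristaless-related homeobox gene that acts with Tbx15 in the shoulder girdle of the mouse, and Emx2 (1.91) were higher distally, and Pax1 (-2.65) and Shox2 (-2.38) were lower. At E17 against E16, 1 was higher and 12 lower (13 of 18 against 65.8%; median -0.43, against -0.01), with Sox9 at -1.63. Hindlimb against forelimb, 6 were higher and 2 lower (8 of 18 against 21.1%; median 0.15, against -0.01), with Shox2 at 0.51 and the Groucho-type corepressor gene Tle2 at 0.33. Among 4 other tested T-box genes, Tbx1 was higher distally (1.60 ± 0.13) and lower at E17 (-1.23 ± 0.11), and Mga was lower at E17 (-0.55 ± 0.07).

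Across the 20 libraries, which share embryos' stages, limbs and phalanges and so are not independent points, Tbx2 and Tbx15 ran opposite to each other (Pearson r = -0.80 on log2 CPM). Tbx3 and Tbx18 ran together (0.71), and the other pairs of members lay between -0.46 and 0.35. By the same measure the genes most like Tbx2 were Serpine2 (0.98), a protease inhibitor, Unc5b (0.97), a netrin receptor, and Dlx5 (0.96), a distal-less homeobox gene. The genes most like Tbx15 were Htra3 (0.96), a secreted protease, the kinase gene Lyn (0.94) and Chrd (0.93), the BMP antagonist chordin. For Tbx18 they were Rnf128 (0.90), Deptor (0.89), an mTOR inhibitor, and Egfem1 (0.89). Tbx3 had weaker likenesses, with Ypel2 (0.81), Hivep1 (0.79) and Npnt (0.78), the matrix protein nephronectin.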

How the data were processed

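The deposited tables hold, per stage, whole-number counts per gene, and the authors' TMM-normalised signal, which equalled the counts divided by 1 constant per column and was not used here. HISAT2 2.2.1, StringTie 2.1.7 and build GRCm39 are named, per the submitters' processing notes; the counting step, annotation release and any filter are not given in the sources used here. Rows were joined by symbol (23932 written alike, 58 by synonym), and the joined genes held 99.03% to 99.48% of each library's counts. Genes reaching 1 CPM in 4 or more libraries were tested with edgeR 4.0.16 in R 4.3.3 (TMM factors, quasi-likelihood F test, two-sided, Benjamini-Hochberg over 14872 genes per comparison, threshold 0.05). The fit modelled phalanx, stage and limb together, with 13 residual degrees of freedom; interactions with stage or limb came from fits of their own with 12. Matched pairs differ in 1 factor. The share of all genes whose groups did not overlap is not given. Log2 CPM for correlations used a prior count of 2. Exon lengths are GENCODE union lengths for mouse; promoters and chromosomes come from RefSeq, GRCm38.p6. Alternatives were DESeq2 1.42.0, RLE factors, no filter, subsets of libraries and each library left out. The single-digit subsets and contrasts and the omission of both forelimb digit 1 proximal libraries were chosen after seeing the data. The members and lists were chosen with earlier results of these data known. For each gene the 3 most correlated genes were named, and for each list up to 4 called genes with the largest fold change. Some genes that this rule names are not reported here.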

Additional observations from a re-analysis of the deposited data

Results flagged for a closer look

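The E16 forelimb digit 1 distal library was flagged for Tbx3 and for Tbx18. Its Tbx3 level of 103 CPM was the highest of the 10 E16 libraries, where the next was 64.2 CPM, and of the 10 forelimb libraries, where the next was 63.0 CPM. Its Tbx18 level of 175 CPM was the highest of the 8 distal libraries, where the next was 103 CPM, in the same phalanx at E17. In each case the gap to the nearest library was large for the range of the group by Dixon's test. The test was run on 48 groups of libraries, and chance flags about 1 in 20 groups. About as many flags as are given here would thus arise by chance, and both Tbx3 flags rest on the same value. The groups mix phalanges, stages or limbs, so a library can also stand apart through the factors it carries.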

How the results depend on the processing

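No pairing of libraries by embryo was possible, because the labels do not say which libraries share embryos. The libraries are matched by stage, limb and phalanx instead, and those factors are already terms of the fit. The direction and the side of the threshold of Tbx2 and Tbx15 for position and for digit 2 distal against middle, and of Tbx2 for stage, were kept under every alternative run. Calls of 1 library per combination rest on additivity of the factors, and subsets hold fewer libraries.
For limb, with 3143 genes called, the counts were 1426 at E16 alone, 163 at E17 alone, 1512 in distal libraries, 1131 in middle and proximal libraries, 398 in digit 1 and 762 in digit 2. For position, with 6954, they were 4401 at E16 alone and 4010 in the digit 1 contrast. For digit 2 distal against middle, with 4920, they were 2482 at E17 alone, 2537 at E16 alone and 3187 in the forelimb. For digit 2 middle against proximal, with 562, they were 37 at E17 alone, 84 at E16 alone, 303 in the hindlimb and 138 in the forelimb. For the distal phalanges of digit 1 against digit 2, with 222, they were 476 with DESeq2, 0 at E17 alone, 69 at E16 alone, 13 in the hindlimb and 391 without both forelimb digit 1 proximal libraries. For the proximal phalanges, with 181, the same settings gave 419, 10, 5, 35 and 34, and the forelimb gave 316. For digit 1 proximal against digit 2 middle, with 275, they gave 620, 0, 10, 33 and 50, and the forelimb gave 588.
Of interactions, position by digit called 58 genes, 310 with DESeq2 and 18 without both forelimb digit 1 proximal libraries. Stage by position called 44, 18 with no filter, 203 with DESeq2 and 91 without those 2 libraries. Stage by limb called 0, and 29 with DESeq2. Limb by position called 23, 13 with RLE factors, 4 with no filter, 265 with DESeq2 and 0 without those 2 libraries. Limb by digit called 25, 118 with DESeq2 and 50 without those 2 libraries.
With each library left out in turn, counts ranged from 9426 to 9702 for stage, 2292 to 3195 for limb, 6508 to 6928 for position, 3935 to 5316 for digit 2 distal against middle, 282 to 654 for middle against proximal, 50 to 301 between distal phalanges, 36 to 285 between proximal phalanges and 90 to 452 for digit 1 proximal against digit 2 middle. They ranged from 4 to 138 for position by digit, 3 to 60 for stage by position, 0 to 145 for stage by limb, 0 to 74 for limb by position and 9 to 96 for limb by digit.
Values that changed sign were these, and the cause was not tested. Tbx2 was -0.14 for limb in middle and proximal libraries, -0.037 for digit 2 middle against proximal at E16, -0.012 to 0.24 for it with each library left out (lowest without the E17 forelimb digit 2 middle library), and for digit 1 proximal against digit 2 middle -0.028 without both forelimb digit 1 proximal libraries and -0.044 to 0.20 with each library left out (lowest without the E16 hindlimb digit 2 middle library). Tbx3 was 0.0087 for digit 2 distal against middle at E16. Tbx15 was -0.14 for stage in middle and proximal libraries. Tbx18 was -0.21 for position in the forelimb and -0.13 in the digit 1 contrast, -0.15 for digit 2 distal against middle at E16, -0.23 at E17 and -0.12 in the forelimb for digit 2 middle against proximal, -0.045 to 0.34 for it with each library left out (lowest without the E16 hindlimb digit 2 middle library), and -0.058 for digit 1 proximal against digit 2 middle in the hindlimb.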
